A study of Mus musculus with 2 samples.

Results

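The Egr zinc finger factors Egr1, Egr2 and Egr3, their corepressors Nab1 and Nab2, the orphan nuclear receptors Nr4a1, Nr4a2 and Nr4a3, the transcription factor Irf4 and the activation antigen Cd69 belong to the transcriptional response of T cells to engagement of the T cell receptor (TCR). These 10 genes were followed through every probe set that carried 1 platform gene symbol and that symbol only. They were read by 22 of the 34945 probe sets with 1 symbol, and they are 10 of 18193 genes on the array. RNA from 1 preparation of gamma/delta T cells, labelled as naïve and CD44-, was compared with RNA from 1 preparation of naïve CD8+ alpha/beta T cells. The source of both was lymph nodes of C57BL/6 mice, negative selection was the way of purifying them, and the labels name no mutation or treatment. Each preparation was read on 1 Affymetrix MOE430 2.0 array. The number and age of the mice are not in the labels.

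TCR engagement activates the Ras and MAP kinase cascade and calcium signalling. The first leads through serum response factor (SRF) and its Elk partners to Egr1, and calcium leads through calcineurin, NFAT and MEF2 factors to Egr2, Egr3 and the Nr4a genes. Egr2 and Egr3 restrain T cell activation, the Nab proteins bind Egr factors and repress their targets, Nr4a receptors act without a known ligand and are used as markers of recent antigen receptor signalling, and Irf4 is produced in proportion to signal strength. In the thymus, Egr factors and their target Id3 are also known for their part in the development of gamma/delta cells.

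The regulatory sequences next to these genes are shown first, because the 3 Nr4a genes hold like half-sites. By their brightest probe sets, Nr4a1 and Nr4a3 were called in opposite directions on the arrays, and Nr4a2 was not called. RefSeq promoter windows of assembly GRCm38.p6, which run from 250 bases before a transcription start to 50 after it, were matched by gene for 7 of the 10 genes, with 11 windows in all. Egr3 and Cd69 were not matched. The chromosome that carries Egr1 was left out of the selection, so Egr1 was not searched. Each window was searched on both strands for TGACG (the half-site of the cyclic AMP response element, CRE, bound by CREB and ATF factors), TGACGTCA (the full CRE, which contains the half-site), GCGTGGGCG (the Egr motif), AAAGGTCA (the NBRE, bound by Nr4a receptors) and the CArG box, which SRF binds. Among all 32851 windows in the table, some of which overlap, TGACG was found in 20.8%, and 4 or more copies of it in 0.231%. Nr4a1, Nr4a2 and Nr4a3 each held 4 copies, the same number as this cut. The windows were not matched for base composition, so the share gives no measure of rarity among like promoters. No full CRE and no NBRE was found in the 11 windows, against 1.79% and 1.51% of all windows.

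The 250 bases before the start of each Nr4a gene are given 5′ to 3′ on the gene's strand, with TGACG or its reverse complement in capitals. Nr4a1 lies at chr15:101266596-101266845 on the plus strand, Nr4a2 at chr2:57124004-57124253 on the minus strand and Nr4a3 at chr4:48045055-48045304 on the plus strand.
Nr4a1: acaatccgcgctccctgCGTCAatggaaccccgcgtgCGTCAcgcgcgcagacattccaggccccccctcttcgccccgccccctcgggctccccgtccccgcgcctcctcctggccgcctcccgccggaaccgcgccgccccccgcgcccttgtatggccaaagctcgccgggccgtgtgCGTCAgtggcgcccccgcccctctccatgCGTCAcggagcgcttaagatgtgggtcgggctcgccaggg
Nr4a2: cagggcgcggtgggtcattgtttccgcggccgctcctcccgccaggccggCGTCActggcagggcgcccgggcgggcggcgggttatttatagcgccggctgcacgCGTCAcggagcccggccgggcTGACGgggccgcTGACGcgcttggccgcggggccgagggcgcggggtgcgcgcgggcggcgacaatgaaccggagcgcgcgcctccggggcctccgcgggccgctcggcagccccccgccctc
Nr4a3: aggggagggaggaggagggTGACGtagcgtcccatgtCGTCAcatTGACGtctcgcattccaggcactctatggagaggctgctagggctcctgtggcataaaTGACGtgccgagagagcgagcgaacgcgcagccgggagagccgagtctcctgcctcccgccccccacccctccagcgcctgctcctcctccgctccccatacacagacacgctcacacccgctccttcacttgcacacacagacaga
In Nr4a1 all 4 half-sites lie on the minus strand, between 233 and 36 bases before the start. In Nr4a3 the 4 lie between 231 and 143 bases before the start, and in Nr4a2 they lie between 200 and 107 bases before it.

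The half-site was also found in Egr2, with 2 copies in each of 3 overlapping windows, and in Nab1, with 1. Among the 7 genes searched, the CArG box was found in windows of Egr2 alone and the Egr motif in that of Nab1 alone. Egr1, which lies on the SRF route described above, was not among them. The 5 windows of Egr2 held 2 different CArG boxes, a motif found in 1.63% of all windows, at chr10:67537484-67537513 and chr10:67537787-67537816 on the plus strand. The window of Nab1 held the Egr motif 2 times, at chr1:52500570-52500599 and chr1:52500538-52500567 on the minus strand, against a share of 0.612% of windows with any copy. The sites are shown with their flanks, 30 bases each, with the motif in capitals.
Egr2 first CArG box: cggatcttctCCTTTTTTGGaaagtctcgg
Egr2 second CArG box: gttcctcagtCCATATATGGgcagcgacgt
Nab1 first Egr motif: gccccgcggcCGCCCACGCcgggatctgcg
Nab1 second Egr motif: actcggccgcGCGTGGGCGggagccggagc
No site was found by these letters in the windows of Irf4 and Nab2. A match of letters does not show that a factor was bound.

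The values are linear MAS5 signals in scaled units, with 1 value per probe set and array. The floor, below which signals carry little order, was set at 243.3, the higher of the arrays' medians. Each lower signal was set to this floor, and the log2 ratio of gamma/delta over alpha/beta signal was then computed. Where 1 of the signals was under the floor the ratio is only a bound ("at least"), and where both were there is none. A difference of 2-fold or more was called. With 1 array per group there was no replicate, no test and no p-value, and every ratio compares these 2 preparations. Probe sets of one gene differed with a pooled SD of 0.50 on the log2 scale (3317 genes), which is no replicate error.

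The cells carried the gamma/delta and CD8 markers of their labels. The gamma/delta markers found on the array, 5 of the 8 listed, were all called higher in the gamma/delta preparation, with a summed signal of 32670 against 262.7. Both CD8 chains were called in the other direction, with 1113 against 11045. Cd44, which the gamma/delta label gives as negative, had signals above the floor on both arrays, 524.9 in gamma/delta against 421.0 in alpha/beta cells. It was not called, its probe sets ran from log2 ratios of -0.85 to 0.97, and its surface protein was not measured. Of the 6 T cell markers found, all were above the floor on both arrays, with sums of 94664 in gamma/delta against 60942 in alpha/beta cells, and Cd3g (8062 and 3486) and Thy1 (5861 and 2724) were called higher in the former. The summed signal of the 9 B cell markers found was 5548 in gamma/delta against 4621 in alpha/beta cells, with Cd79a, Pax5, Cd22 and Cd74 under the floor on both arrays. Above it on both were Ebf1 (3331 and 2650), Ms4a1 (858.2 and 616.0), Blnk (374.0 and 262.6) and H2-Aa (277.1 and 461.0), and Cd79b was above it in gamma/delta cells alone (254.2 and 187.6). The sums of myeloid markers were 1221 and 1040, with 7 of 9 under the floor on both arrays, and those of NK cell markers 417.0 and 666.1. The B cell, myeloid, NK cell, erythroid, stromal, and CD4 and regulatory T cell lists had 35 markers on the array. Of these, 23 were under the floor on both arrays and could not be called. None of the others reached 2-fold, against shares over all genes with a ratio of 5.82% higher and 3.93% lower. Actin, a control for RNA integrity, had a 3′ to 5′ signal ratio of 6.99 in gamma/delta and 3.12 in alpha/beta RNA, the transferrin receptor had 3.97 and 4.47, and Gapdh had 3.06 and 3.24. The part of RNA quality and of other cell types in the results below was not tested.

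Egr1 and Nr4a1 were higher in gamma/delta cells, Egr2 and Nr4a3 were lower, and Egr3, Irf4, Nab1, Nab2, Nr4a2 and Cd69 were not called by their brightest probe sets. Of the 22 probe sets, 11 were above the floor on both arrays, 7 gave a bound and 4 were under the floor on both. Among the 18 with a ratio, 3 were called higher in gamma/delta cells and 3 lower. Over all 20297 probe sets with a ratio the shares were 5.2% higher and 4.37% lower. By gene, taking the brightest probe set, 2 of 10 were higher (Egr1 and Nr4a1) and 2 lower (Egr2 and Nr4a3), against 5.82% and 3.93% of 11914 genes. The median log2 ratio of the 10 genes was -0.06, beside 0.03 over all genes. The floor keeps 2-fold differences out of reach of dim probe sets. Of the 6 members whose brighter signal was under 500, 0 were called, against 0.728% of all such probe sets. Of the 4 between 500 and 1000, 2 were called against 18% of all, of the 6 between 1000 and 4000, 3 against 15.8%, and of the 2 over 4000, 1 against 19.4%.

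**Figure D1:**
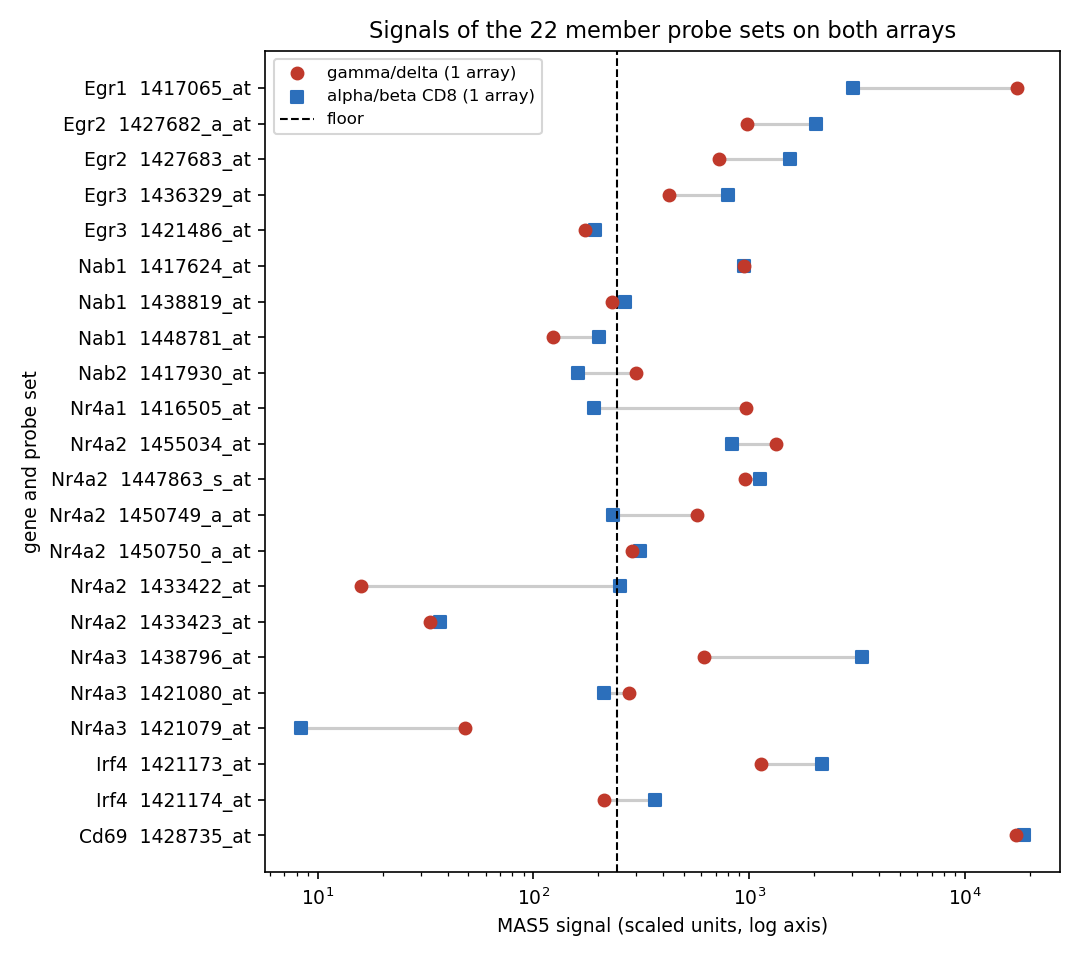
Signal of each of the 22 probe sets on the gamma/delta array (red circles) and the alpha/beta CD8 array (blue squares), in MAS5 scaled units on a log axis, with 1 array per group and no error bars. The dashed line is the floor of 243.3, and Egr1, Nr4a1 and Nr4a3 1438796_at show the widest gaps with a signal well above it.

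Egr1, an immediate early zinc finger activator, was read by 1 probe set, 1417065_at. Its signal was 17370 in gamma/delta cells against 3026 in alpha/beta cells. Both values stood far above the floor, so the ratio is a measured one, 5.74-fold (log2 ratio 2.52). The alpha/beta cells, labelled as naïve, thus gave an Egr1 signal too. In bulk RNA, more cells with a transcript and more transcript per cell cannot be told apart.

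Egr2, which is known to limit T cell responses and to act in NKT cell development, went the opposite way. Its 2 probe sets read 977.5 and 727.1 in gamma/delta cells against 2047 and 1540 in alpha/beta cells. The ratios were almost equal, 2.09-fold and 2.12-fold lower in gamma/delta cells (log2 ratios -1.07 and -1.08), which places both just past the 2-fold call. Egr3, the close relative of Egr2, had a signal of 424.8 in gamma/delta against 794.2 in alpha/beta cells by 1436329_at, a log2 ratio of -0.90 that stays just short of the call. Its other probe set, 1421486_at, was under the floor on both arrays, at 172.8 and 192.3. On the same pair of arrays the log2 ratio of Egr1 thus exceeded that of Egr2 by 3.59 and that of Egr3 by 3.42, while Egr2 and Egr3 were apart by -0.16.

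Neither corepressor of the Egr factors was called. Nab1 had nearly the same signal on both arrays by its brightest probe set, 946.1 in gamma/delta against 948.9 in alpha/beta cells (log2 ratio 0.00 to 2 decimals). Its other probe sets were dim, 232.2 against 265.0 by 1438819_at and 123.9 against 200.6 by 1448781_at. Nab2, which is itself induced by Egr factors, was at 297.8 in gamma/delta cells against 160.6 in alpha/beta cells, at least 1.22-fold higher in the former. That signal lies close to the floor, so the size of the Nab2 difference could not be read.

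Nr4a1, also called Nur77 and widely used in reporter mice as a gauge of TCR signalling, was higher in gamma/delta cells. Its 1 probe set, 1416505_at, read 965.2 there and 191.6 in alpha/beta cells, under the floor. The difference was at least 3.97-fold (log2 ratio of at least 1.99). Under a floor at the 70th percentile of signals the bound was 1.11, still past the call.

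Nr4a3, also called Nor1, was lower in gamma/delta cells by its brightest probe set. On 1438796_at its signal was 615.5 in gamma/delta cells against 3319 in alpha/beta cells, a difference of 5.39-fold (log2 ratio -2.43). The other 2 probe sets were dim, and on both the gamma/delta signal was the higher. The signals of 1421080_at were 278.6 and 212.1, on both sides of the floor (log2 ratio of at least 0.20), and those of 1421079_at were 48.1 and 8.42, both under it. With probe sets averaged Nr4a3 was under the floor on both arrays, so its difference rests on 1 probe set of 3. The log2 ratio of Nr4a1 exceeded that of Nr4a3 by at least 4.42, the widest gap among the family pairs compared (Egr1 with Egr2 and Egr3, Egr2 with Egr3, and Nr4a1 with Nr4a2 and Nr4a3).

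Nr4a2, also called Nurr1, had the most probe sets, 6, and they disagreed. The brightest, 1455034_at, was 1332 in gamma/delta against 827.5 in alpha/beta cells (log2 ratio 0.69). The second, 1447863_s_at, was 951.3 and 1122 (log2 ratio -0.24). The dimmer 1450749_a_at was 571.9 in gamma/delta cells against 233.5 in alpha/beta cells, a difference of at least 2.35-fold, which was a call in the same direction as Nr4a1. Against it, 1450750_a_at had 287.2 and 313.3, and 1433422_at had 15.9 and 250.9, the latter barely above the floor. The last, 1433423_at, lay under the floor on both arrays at 33.0 and 36.9. Over the 5 with a ratio, 2 were above 0 and 3 below, and the 3 measured on both arrays had an SD of 0.50. No direction can be given for Nr4a2.

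**Figure D2:**
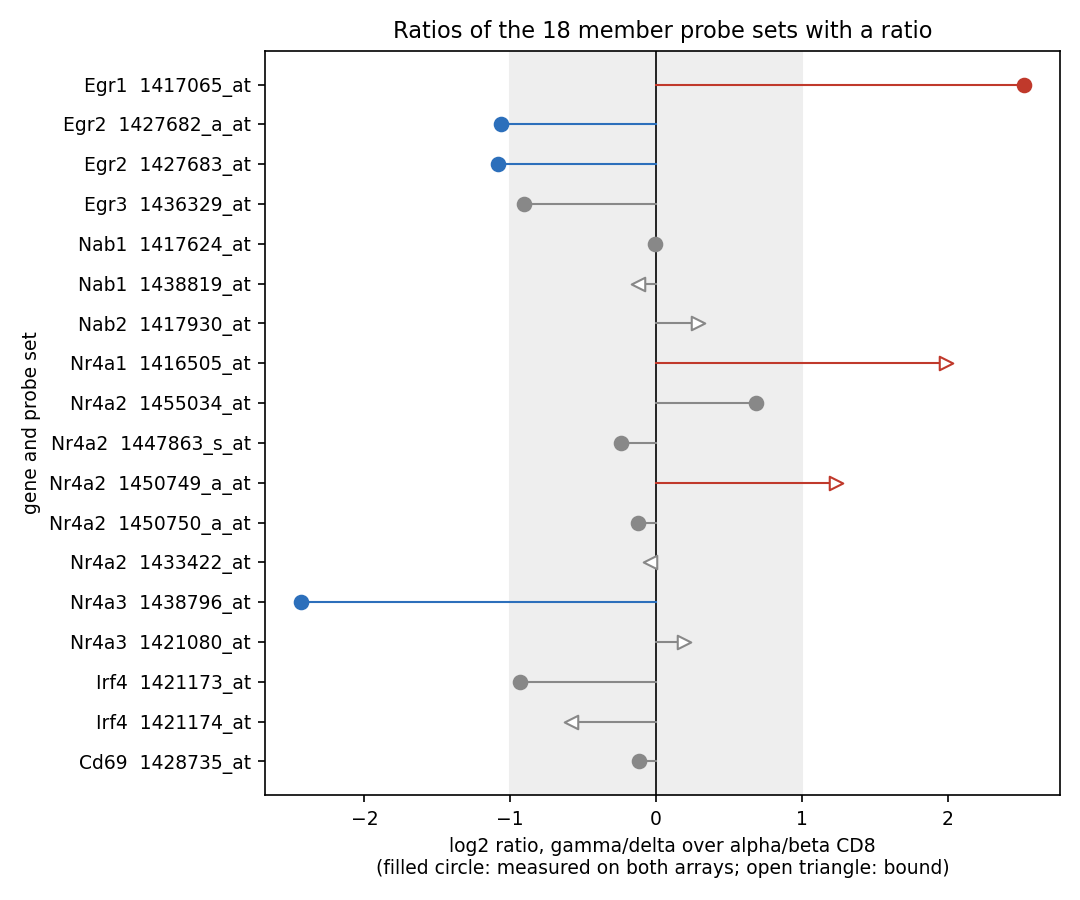
Log2 ratio of gamma/delta over alpha/beta CD8 signal for the 18 probe sets with a ratio, 1 array per group, with filled circles for those above the floor on both arrays and open triangles for bounds. The grey band spans ratios under 2-fold, red marks the 3 probe sets called higher in gamma/delta cells and blue the 3 called lower, and the Nr4a2 probe sets lie on both sides of 0.

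Irf4, which controls effector differentiation and is known for a graded response to TCR signal strength, was lower in gamma/delta cells on both probe sets without reaching the call. By 1421173_at its signal was 1136 in gamma/delta against 2170 in alpha/beta cells, 1.91-fold apart (log2 ratio -0.93). By 1421174_at it was 212.9 and 364.8, with the former under the floor (log2 ratio of -0.58 as a bound). Egr2, Egr3 and Irf4 thus had like ratios, between -1.08 and -0.58 over their 5 probe sets with a ratio, the last of these a bound. Only the 2 of Egr2 were past 2-fold.

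Cd69, a lectin-like surface receptor that appears within hours of activation and holds cells in lymphoid tissue by pulling the receptor S1pr1 inside, was bright and nearly equal. Its 1 probe set read 17258 in gamma/delta cells against 18670 in alpha/beta cells, 1.08-fold apart (log2 ratio -0.11). The sign was not stable, with 0.06 after quantile normalization and 0.09 after loess. The 5.74-fold difference in Egr1 and the at least 3.97-fold difference in Nr4a1 were therefore not accompanied by a 2-fold difference in Cd69 mRNA. Surface protein was not measured.

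**Figure D3:**
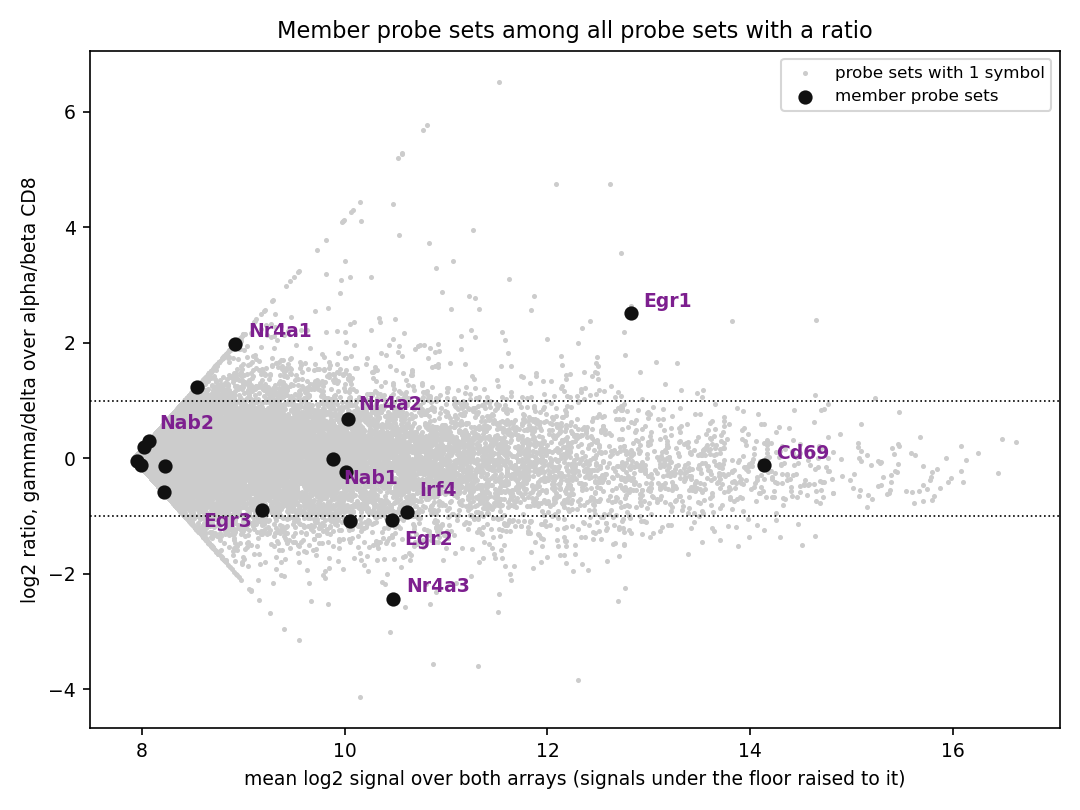
Log2 ratio of gamma/delta over alpha/beta CD8 signal against the mean log2 signal over both arrays for the 20297 probe sets with 1 symbol and a ratio (grey), with the 18 member probe sets in black and each gene named at its brightest probe set. Dotted lines mark 2-fold, the diagonal edges on the left are bounds set by the floor, and Egr1, Nr4a1, Nr4a3 and Egr2 lie outside the dotted lines while Cd69 lies near 0 at high signal.

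Other genes of the pathway were counted from lists drawn up by their known function, with earlier results of these data known. The counts therefore describe these lists and test nothing. For each list below, the shares over all 11914 genes with a ratio are 5.82% called higher and 3.93% called lower. Over all genes 47.6% of ratios were below 0, with a median of 0.03. Of 19 other TCR-responsive genes with a ratio, 4 were called higher in gamma/delta cells and 1 was called lower (median log2 ratio 0.22). The higher ones with the widest gaps were Dusp5, a phosphatase of nuclear ERK (6568 in gamma/delta against 309.0 in alpha/beta cells), Tnfaip3, an inhibitor of NF-kB signalling (8928 and 1507), and Dusp6, a phosphatase of ERK in the cytoplasm (1881 and 565.0). The fourth was Bhlhe40, a transcriptional repressor (513.5 and 45.8, the latter under the floor). Cd83 was the lower one, at 303.2 and 684.3, and both Cd83 and Bhlhe40 lost the call under the floor at the 70th percentile. Under the floor on both arrays were 10 members, among them Egr4, Myc, Tnfrsf9 and Pdcd1, genes of activated cells. Other such genes of the list were above it: Ctla4 (596.9 and 607.9) and Icos on both arrays, and Il2ra (333.2 and 191.8) in gamma/delta cells alone. With probe sets averaged 3 were lower, since Icos (678.9 and 1230) and Nfkbia (44367 and 72945), whose probe sets were all below 0, passed the call at -1.59 and -1.16. With no floor 4 were lower, the added ones being Ier3, Tnfrsf4 and Spry1, and Id3 was called higher both there and under the 30th percentile floor.

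Of the immediate early genes, Fos, Jun, Junb and Dusp1 were called higher in gamma/delta cells, as Egr1 and Nr4a1 were. In a list of 13 AP-1, immediate early and heat shock genes, which are also known to rise while tissue is dissociated and cells are sorted, all 10 with a ratio were above 0. Of these, 6 were called higher in gamma/delta cells and none lower, against 5.82% and 3.93% of all genes. The median log2 ratio was 1.54. Fos, the partner of Jun in AP-1, had signals of 28220 and 305.9, Jun 5185 and 860.7, Dusp1 33077 and 6342, and Junb 1260 and 266.1. Not called were Fosl2, Btg2, Zfp36 and Hspa1b, with log2 ratios of 0.48, 0.04, 0.68 and 0.60, and Fosl1, Atf3 and Hspa1a were under the floor on both arrays. Jund turned from 1.05 to -0.77 with probe sets averaged, Btg2 was at -0.01 after quantile normalization, and with no floor Hspa1a was called lower. That all were above 0 also depends on how the lists were drawn. Ier2 (254.5 and 286.3), Ier5 (1560 and 2322) and Nfkbia were counted with the other TCR-responsive genes. Their log2 ratios were -0.17, -0.57 and -0.72. By their brightest probe sets Egr2, Egr3, Nr4a3 and Irf4 had ratios below 0, and of these only Egr2 and Nr4a3 were called. The labels do not describe the handling of each preparation. Its part in the Egr1 and Nr4a1 differences, or in those of these genes, was not tested.

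The factors that act upstream were near even as a list, with a median of 0.19 over 17 genes. Of these, 9 were above 0 and 8 below, beside 47.6% below 0 over all genes. The 4 called higher in gamma/delta cells were Elk3 (2084 and 669.2), SRF's own gene Srf (723.9 and 323.6), Elk1 (528.4 and 124.9, the latter under the floor) and Nfatc2, which encodes an NFAT factor (1379 and 656.4), and 0 were lower. Elk1, Elk3 and Elk4 are ternary complex factors that join SRF at CArG boxes, the motif shown above for Egr2. Elk4 had 3846 and 6761, a log2 ratio of -0.81. The probe sets of Elk3 ran from -0.34 to 1.64 and those of Nfatc2 from -0.40 to 1.07, and with probe sets averaged 0 of the list were called higher. Srf and Elk1 lost the call under the floor at the 70th percentile, with 0.69 and 0.24, and Srf had no ratio without the probe sets with suffix _x_at, _s_at or _a_at, which can match several transcripts.

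Of 10 genes known as Egr targets in T cells that had a ratio, 2 were higher and 2 lower in gamma/delta cells, and the median was 0.04. Socs3, a feedback inhibitor of cytokine receptors, was at 9705 against 622.7, and Dgkz, a diacylglycerol kinase that damps Ras activation, at 1351 and 663.5. Cblb, a ubiquitin ligase that raises the threshold of activation and is induced by Egr2 and Egr3, was lower, at 2478 and 5318. Ndrg1 was lower too, at 115.6 and 810.4, with its probe sets running from -1.74 to 0.33. Dgka, a second diacylglycerol kinase of this list, had 3257 and 4780, short of the call. Nab2 belongs to this list as well and is counted in it. The lower calls were not kept throughout: with probe sets averaged 0 were lower (Cblb at -0.78, Ndrg1 without a ratio), and Ndrg1 lost its call under the 70th percentile floor and without the suffixed probe sets. Socs3 had no ratio in the latter case, Dgkz was at 0.99 after quantile normalization, and with no floor 5 were called higher.

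Among 9 genes associated with Nr4a factors, 5 were under the floor on both arrays, including Pdcd1, Lag3, Havcr2 and Foxp3, which mark exhausted or regulatory T cells. Of the 4 with a ratio, Tox2 (851.7 and 202.4, at least 3.50-fold) and Ikzf2 (4030 and 1756, with probe sets from 0.06 to 1.20) were called higher in gamma/delta cells. Tox and Runx1 had log2 ratios of 0.53 and -0.11. With probe sets averaged 0 of this list were called, and Tox2 lost the call under the 70th percentile floor, at 0.93.

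None of the 6 partners and relatives of Irf4 with a ratio reached 2-fold in either direction, though Irf1 was called higher after loess and Irf8 (255.4 and 8.52) with no floor. The widest were Irf1 (2594 in gamma/delta against 1316 in alpha/beta cells, log2 ratio 0.98), Irf2 (2071 and 3673, log2 ratio -0.83), Prdm1, which encodes Blimp-1 (343.5 and 566.0, log2 ratio -0.72), and Myb (31617 and 24607, log2 ratio 0.36). Batf, the AP-1 factor that binds DNA together with Irf4, was under the floor on both arrays.

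Around Cd69, of 8 surface and egress genes with a ratio, 2 were called higher in gamma/delta cells and none lower, and the median was 0.39. They were Itgae, the CD103 integrin chain (5383 and 734.7), and Tfrc, the transferrin receptor of growing cells (7478 and 2883), whose probe sets ran from -0.23 to 1.37 and which was at 0.48 with probe sets averaged. S1pr1, the receptor that Cd69 holds back, had 948.5 and 773.8, Il2rb 683.4 and 446.5, and Ccr7, the lymph node homing receptor, 1216 and 1795, all short of the call.

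**Figure D4:**
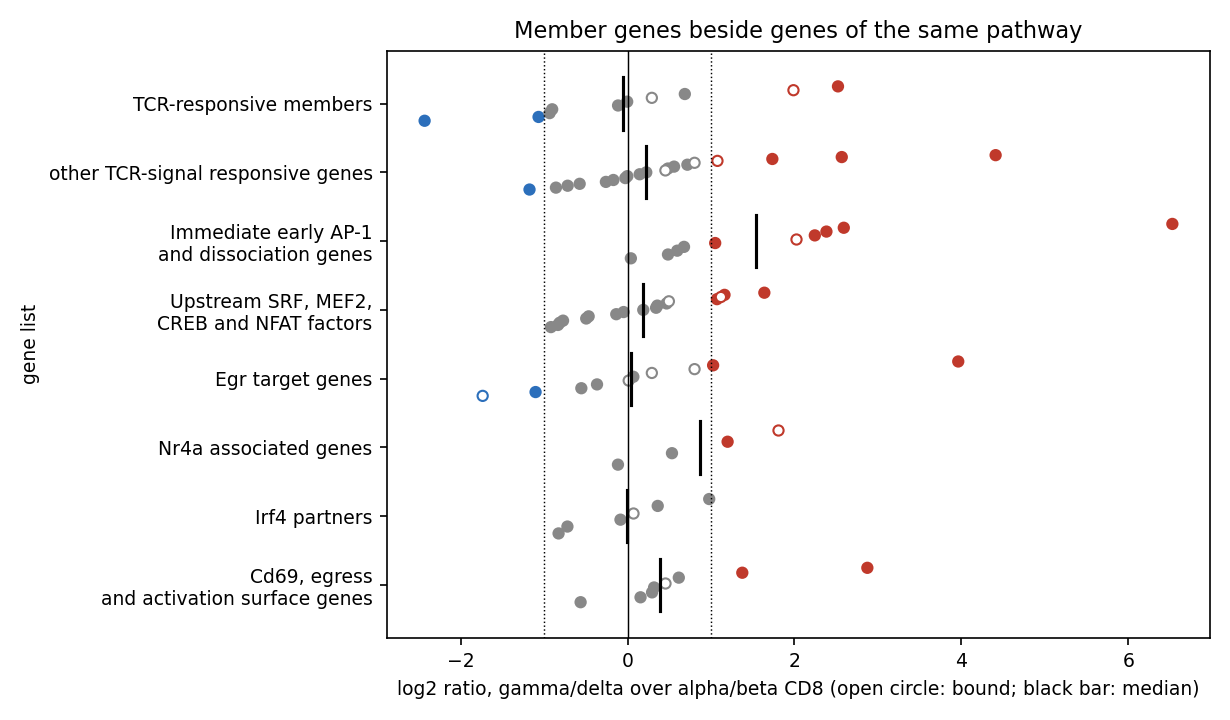
Log2 ratio of gamma/delta over alpha/beta CD8 signal for the 10 member genes (top row) and for each pathway list, 1 point per gene with a ratio, open where it is a bound, red where called higher in gamma/delta cells and blue where called lower, with a black bar at the median. The members spread to both sides of 0 with a median of -0.06, while the immediate early list lies wholly above 0 with a median of 1.54. The lists were chosen with earlier results of these data known.

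Over the values as reported and 8 alternatives, Egr1 stayed between 2.51 and 2.66 on the log2 scale, Egr2 between -1.08 and -1.06 and Irf4 between -0.94 and -0.86. The floors, averaging and the suffix rule could not move Egr1, which has 1 probe set, unsuffixed and above every floor. Only median scaling, quantile normalization and loess could. The floors also left Egr2 and Irf4 unchanged. Nr4a1 ranged from 1.11 to 2.33, since it depends on where the floor lies. Nr4a2 turned from 0.69 to -0.27 with probe sets averaged, and Egr3 moved from -0.90 to -0.53 there.

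**Figure D5:**
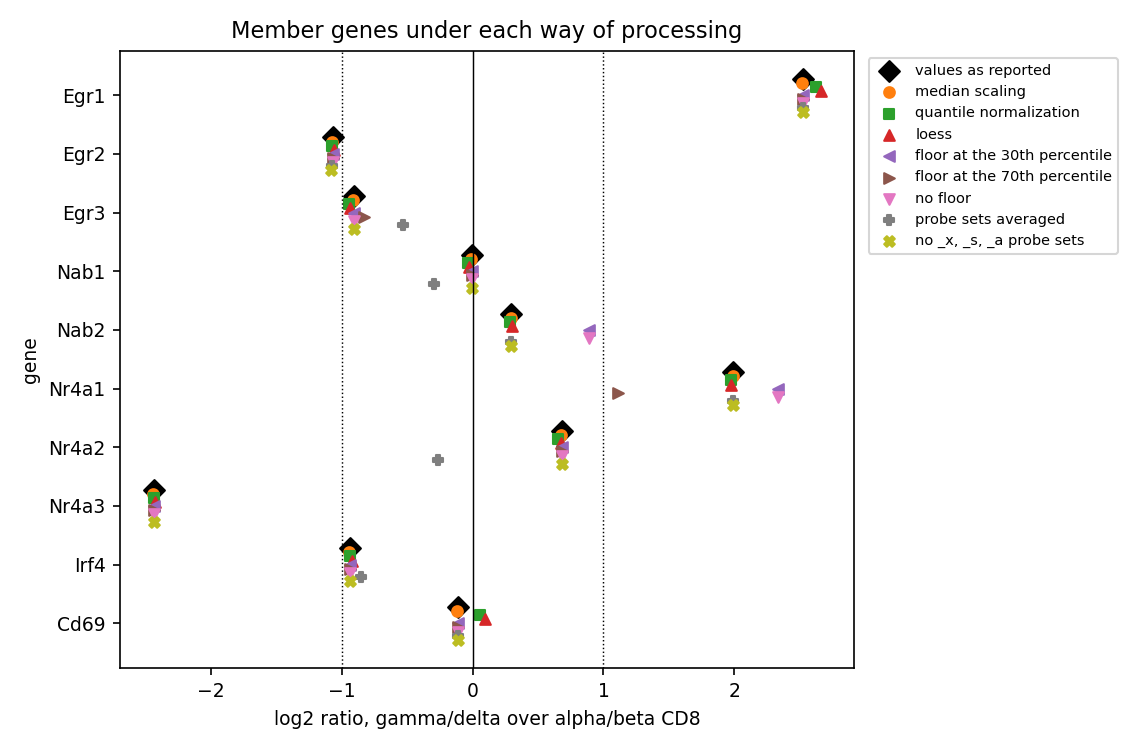
Log2 ratio of each of the 10 genes as reported (black diamonds) and under 8 other ways of scaling, flooring or combining probe sets, 1 array per group. Egr1, Egr2 and Nr4a1 stay outside the dotted 2-fold lines under each, Nr4a3 has no value with probe sets averaged, and Nr4a2 and Cd69 change sign under 1 and 2 of them.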

How the data were processed

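The deposited values are 1 intensity per probe set and array, a linear signal. The authors made it with MAS5 (Affymetrix Expression Console 1.0), according to the submitters' processing notes. Both arrays had a 2% trimmed mean of 500.003, so the values were used unchanged. Detection calls were not used here. Of 45101 probe sets, 64 were controls. The platform annotation gave 1 symbol to 34945 of the others and several to 932, and 0 of the latter named a member. The gene identifiers of all 10 members were found in RefSeq under the same symbol.

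The brightest probe set by mean log2 signal stood for a gene. The rule for named genes was all members with all their probe sets and, from each list, up to 4 genes with the largest ratio. Further names were picked with their values in view. The members and lists were chosen with earlier results of these data known. Lists share members. Genes not found under the listed symbol were not analysed here. The calls were tested on simulated data, with differences planted only in genes well above the floor and with a chosen noise level. That test does not cover dim probe sets or bounds and gives no replicate error. Python 3.11.15, pandas 2.3.3, scipy 1.17.1 and statsmodels 0.14.6 were used. The alternatives were median scaling, quantile normalization, loess, floors at the 30th and 70th percentile, no floor, averaged probe sets, and leaving out the suffixes _x_at, _s_at and _a_at. The number of arrays limits the precision.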

Additional observations from a re-analysis of the deposited data

How the results depend on the processing

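Both counts of called member probe sets, the count of member genes called higher and the direction of every called member gene were kept, within 1.5 times for counts, under each alternative that gave a value. The count of member genes called lower fell from 2 to 1 with probe sets averaged, because both averaged Nr4a3 signals were below the floor. A floor at the 70th percentile left Nab2 without a ratio, and Nr4a2 1450749_a_at had a bound of 0.35, below the call. With no floor Nr4a2 1433422_at had a log2 ratio of -3.98, between signals of 15.9 and 250.9 that are near or under the floor. Over all genes 693 were called higher and 468 lower, 459 and 322 with probe sets averaged, 396 and 284 under the 70th percentile floor, 1320 and 1008 under the 30th percentile floor, and 2917 and 2593 with none. Of 112 counts for the pathway lists under the alternatives, 19 moved by over 1.5 times. No paired analysis was possible because each group has 1 array and the labels carry no replicate numbers, and no array could be left out.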
